A study of Mus musculus with 58 samples.

Results

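The 10 primitive endoderm marker genes described here were Gata4, Gata6, Sox17, Sox7, Foxa2, Dab2, Pdgfra, Lama1, Lamb1 and Col4a1. They were chosen by name, as established markers of this lineage, with earlier results of these data known. They are 10 of the 20177 genes with a deposited 3′ UTR interval. The reads of all intervals of a gene were summed. All 10 genes were found, and the interval with the most reads carried between 95.6% and 100% of a member's Quant-seq reads.

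The primitive endoderm is an extraembryonic lineage that separates from the pluripotent epiblast in the blastocyst and gives rise to the visceral and parietal endoderm of the yolk sacs. GATA6 and GATA4, SOX17, SOX7 and FOXA2 are its transcription factors, PDGFRA is a receptor and DAB2 an endocytic adaptor of its cells, and laminin α1, laminin β1 and collagen IV α1 build the basement membrane that the lineage secretes. Retinoic acid (RA) in the absence of LIF, the cytokine that holds mouse embryonic stem (mES) cells in self-renewal, drives mES cells into differentiation, and endoderm-like cells are among its products. DPY30 and RBBP5 are core subunits of the SET1/COMPASS (MLL) complexes, which methylate histone H3 at lysine 4, and KDM5A and KDM5B are demethylases that remove trimethylation from that residue.

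All cells were derived from E14 mES cells of the 129/Ola background, grown in serum with LIF. In the DPY30–mAID line a homozygous auxin-inducible degron tags DPY30, and the plant F-box protein OsTIR1, delivered with piggyBac, directs the tagged protein to degradation when auxin is added. In this line, Quant-seq, which counts the 3′ ends of polyadenylated transcripts, followed differentiation with RA and without LIF in DMSO (0 h, 8 h and days 1, 2, 4 and 6) or in auxin (8 h and days 1, 2, 4 and 6), with 2 libraries per group. SLAM-seq, in which 4-thiouridine taken up by new RNA is read as T>C conversions, covered undifferentiated cells of 3 lines. DPY30–mAID cells were treated with auxin and a clonal RBBP5–FKBP line with dTAG-13 (0, 2, 8 and 24 h, with 3 libraries each). DPY30–mAID cells in which Kdm5a and then Kdm5b had been knocked out (dKO) were treated with auxin (0, 2, 4, 8, 24 and 48 h, with 2 libraries each). Thus every group, including each control, carried a degron tag on a core COMPASS subunit, and auxin cells without RA were not part of the Quant-seq course used here.

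The intervals held between 1264241 and 2543632 reads per Quant-seq library, between 1721185 and 2852331 per DPY30–mAID or RBBP5–FKBP SLAM-seq library, and between 5931269 and 7792404 per dKO library. Both DMSO libraries of day 6 held identical values and were counted as 1, so that the day 6 DMSO level has no replicate and its tests borrow the spread of the other groups. The share of a library's reads that fell in the intervals was between 50.2% and 50.5% in the DMSO libraries of day 4, between 43.5% and 44.4% with auxin at day 4, and between 34.9% and 38.3% with auxin at day 6. The part of this share in the differences below was not tested. Levels are given as CPM, with each count scaled to the reads in all intervals of its library. These totals were multiplied by the library's TMM factor, edgeR's correction of library size. The exact ratios and the read floors below use the totals without that factor, so they can differ from ratios of the printed CPM. A gene passed the test at an adjusted p below 0.05 (edgeR's quasi-likelihood test with Benjamini-Hochberg adjustment over all genes tested), and was called where its log2 fold change was also at least 1 in size.

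The counted 3′ ends of the members lie apart from each other. In GRCm38, which the interval table uses, Gata4 (chr14:63198922-63271692, minus strand) and Sox7 (chr14:63943673-63950732, plus strand) are separated by 671980 bases, and Col4a1 (chr8:11198423-11312826, minus strand) starts head to head with its partner Col4a2, the gene models overlapping by 22 bases. The other members were Sox17 (chr1:4490931-4497354, minus strand), Foxa2 (chr2:148042877-148046969, minus strand), Dab2 (chr15:6299788-6440712, plus strand), Pdgfra (chr5:75152292-75198215, plus strand), Lama1 (chr17:67697259-67822647, plus strand), Lamb1 (chr12:31265234-31329644, plus strand) and Gata6. Reads that map to several places made up at most 0.409% of a member's Quant-seq reads.

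RefSeq (GRCm38.p6) gave promoter windows, from 250 bases before to 50 bases after a start, for 5 of the 10 members: Foxa2 with 3 starts, Dab2 with 2, and Pdgfra, Lamb1 and Col4a1 with 1 each. 4 of the 8 windows are shown because their genes span the behaviours described below: Foxa2 was held back late, Dab2 from day 2 on, and Col4a1 changed its response between day 2 and day 4. Both Dab2 starts are shown because they differ in base composition, and of the 3 Foxa2 starts the 1 with a match to the motif below is shown. Capitals mark GATAA, the core of the sequence that GATA factors bind, on either strand (TTATC on the strand printed).
Foxa2 (chr2:148045415-148045714, minus strand): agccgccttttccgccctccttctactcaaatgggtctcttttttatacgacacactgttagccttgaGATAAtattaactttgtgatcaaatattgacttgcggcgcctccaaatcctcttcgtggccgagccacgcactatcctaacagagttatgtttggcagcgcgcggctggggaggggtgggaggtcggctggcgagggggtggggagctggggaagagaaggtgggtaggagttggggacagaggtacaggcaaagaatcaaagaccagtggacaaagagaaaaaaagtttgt
Dab2, upstream start (chr15:6299539-6299838, plus strand): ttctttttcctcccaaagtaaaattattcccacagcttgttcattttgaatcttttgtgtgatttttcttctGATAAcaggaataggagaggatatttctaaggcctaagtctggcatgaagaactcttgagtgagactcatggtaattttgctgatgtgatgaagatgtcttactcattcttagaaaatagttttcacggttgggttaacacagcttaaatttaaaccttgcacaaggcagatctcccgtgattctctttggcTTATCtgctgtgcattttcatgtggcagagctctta
Dab2, downstream start (chr15:6386498-6386797, plus strand): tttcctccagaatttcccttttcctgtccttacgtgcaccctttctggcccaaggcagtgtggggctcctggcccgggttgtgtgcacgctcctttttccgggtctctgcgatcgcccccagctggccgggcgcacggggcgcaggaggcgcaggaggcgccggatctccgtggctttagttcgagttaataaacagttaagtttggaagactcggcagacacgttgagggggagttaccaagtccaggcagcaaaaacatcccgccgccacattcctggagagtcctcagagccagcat
Col4a1 (chr8:11312777-11313076, minus strand): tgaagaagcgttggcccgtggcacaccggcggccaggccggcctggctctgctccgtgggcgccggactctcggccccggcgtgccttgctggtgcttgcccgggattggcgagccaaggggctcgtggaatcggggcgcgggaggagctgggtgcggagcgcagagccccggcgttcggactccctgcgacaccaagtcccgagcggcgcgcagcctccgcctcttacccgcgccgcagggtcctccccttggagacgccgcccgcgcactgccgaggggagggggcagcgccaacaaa

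The upstream Dab2 window held 2 matches to GATAA and the printed Foxa2 window 1. The other 6 windows, which include those of the other Foxa2 starts, held none. A match was thus present in 2 of 8 member windows, and in 25.4% of the 32851 promoter windows of the table. The Col4a1 window had 74.0% G+C and 37 CpG dinucleotides, with an observed to expected CpG ratio of 0.902, whereas the upstream Dab2 window had 2 CpGs and a ratio of 0.188 and the downstream one 19 CpGs and a ratio of 0.72. A ratio of at least 0.6 was found in 5 of the 8 member windows and in 35.8% of all windows. These matches are descriptions of the printed letters and carry no test.

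RA raised every member in DMSO cells, with little change in their summed level up to day 1. At 0 h the members' summed level was between 84.3 and 85.7 CPM. It stayed between 82.2 and 90.3 CPM at day 1, and then reached between 705 and 708 CPM at day 2, between 3467 and 3517 CPM at day 4 and 7697 CPM at day 6. In bulk libraries such as these, fewer cells of a type and less RNA per cell cannot be told apart.

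**Figure D1:**
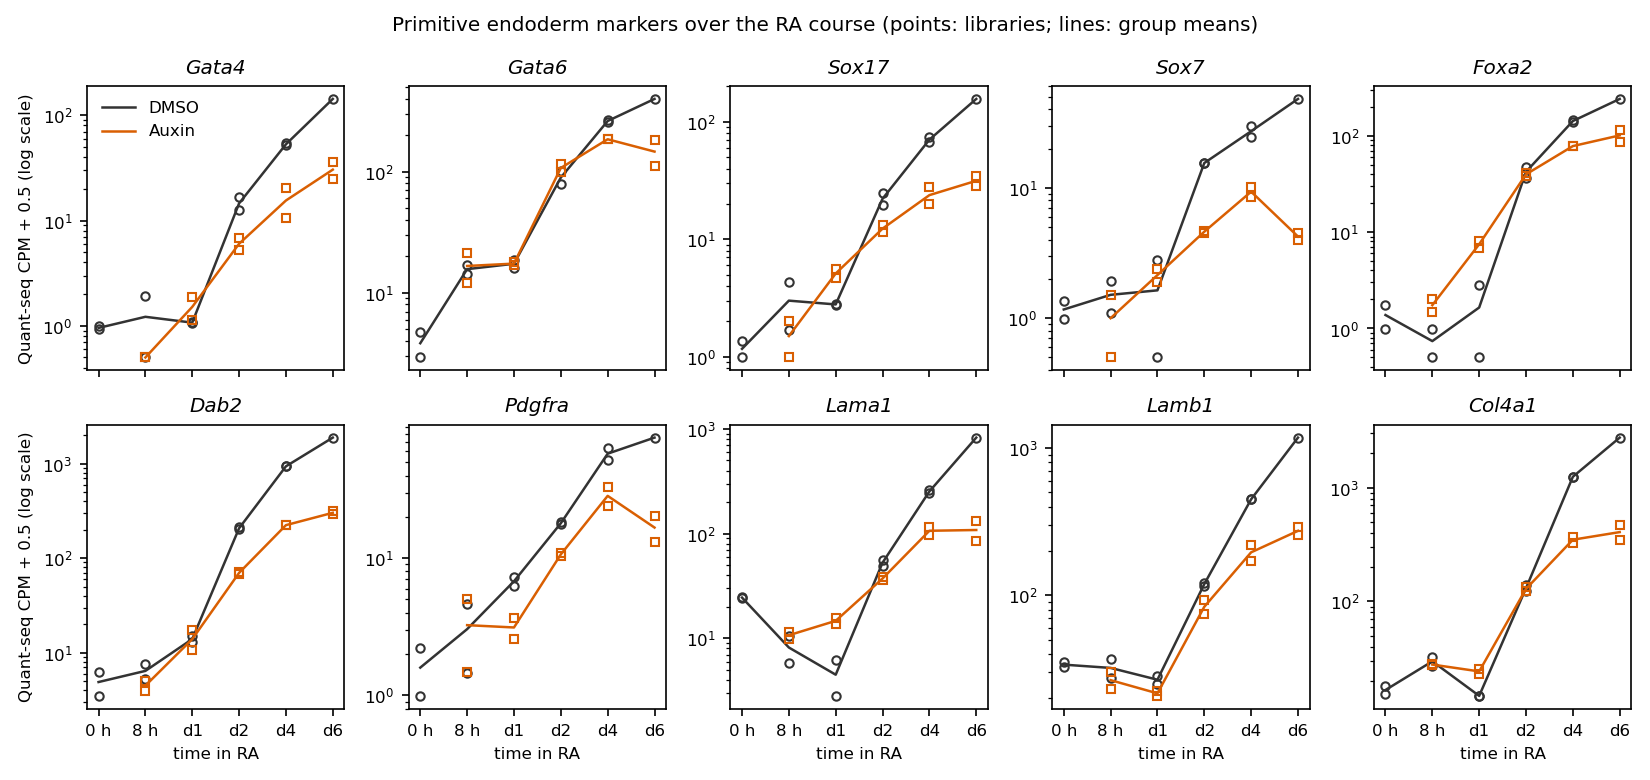
Level of each member gene (CPM plus 0.5, log axis, with its own range in each panel) at each time of RA treatment in DMSO and in auxin. Points are single libraries and lines join the group means, with times evenly spaced and not to scale, and the auxin libraries lie under the DMSO libraries for all 10 members at days 4 and 6.

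Among the transcription factors, Gata6, the factor placed at the head of the primitive endoderm programme, was the earliest to rise. Its DMSO libraries read 2.42 and 4.24 CPM at 0 h, 16.5 and 13.9 at 8 h, 18.2 and 15.5 at day 1, 99.7 and 77.9 at day 2, 258 and 264 at day 4, and 397 at day 6. The 8 h libraries lay above both 0 h libraries, with a log2 fold change of 2.13 ± 0.44 (SE, adjusted p = 0.001, n = 2 per group, edgeR), and there was no overlap at any later time. Gata6 was 1 of 2 members called at 8 h, where 3.50% of all genes tested were called higher and 2.93% lower.

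Gata4, the related GATA factor, was close to the detection limit until day 1. Its DMSO libraries read 0.485 and 0.424 CPM at 0 h, 0 and 1.43 at 8 h, and 0.568 and 0.575 at day 1, then 16.1 and 12.0 at day 2, 51.5 and 53.5 at day 4, and 143 at day 6. The day 1 libraries lay just above those of 0 h with 1 read each, and day 2 was the earliest time at which Gata4 passed the test. With 2 reads in all at 0 h, the ratio of day 4 over 0 h was 129, with an exact 95% interval from 35.4 to 1073 that covers counting error only.

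The SOX factors Sox17 and Sox7, which act in endoderm differentiation, followed the same timing. Sox17 libraries read 0.485 and 0.848 CPM at 0 h, 19.2 and 24.0 at day 2, 73.8 and 66.2 at day 4, and 156 at day 6 in DMSO. Sox7 libraries read 0.485 and 0.848 CPM at 0 h, 15.1 and 14.9 at day 2, 29.2 and 24.0 at day 4, and 47.5 at day 6. Sox17 read 1.18 and 3.83 CPM at 8 h and 2.27 and 2.30 at day 1, above both 0 h libraries but on few reads, and neither gene passed the test before day 2. The ratio of day 4 over 0 h, from 3 reads at 0 h in each case, was 115 (39.0 to 560) for Sox17 and 43.8 (14.6 to 215) for Sox7.

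Foxa2, a forkhead factor of the visceral and definitive endoderm, went from 0 and 2.30 CPM at day 1 to 36.4 and 47.1 at day 2, 137 and 146 at day 4, and 240 at day 6 in DMSO. Its 0 h libraries read 0.485 and 1.27 CPM, below every library from day 2 on, and the day 4 ratio was 174 (67.6 to 641, from 4 reads at 0 h).

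Dab2, the endocytic adaptor, was higher already at day 1. Its DMSO libraries read 5.82 and 2.97 CPM at 0 h, 12.5 and 14.4 at day 1, 203 and 211 at day 2, 932 and 938 at day 4, and 1882 at day 6. Replicates were close together at every time from day 1, and the day 4 log2 fold change was 7.74 ± 0.18 (SE, n = 2 per group). Pdgfra, the receptor tyrosine kinase, was also called at day 1 (2.41 ± 0.67, adjusted p = 0.0042, edgeR), from 0.485 and 1.70 CPM at 0 h to 6.81 and 5.75. It then read 17.1 and 17.8 CPM at day 2, 51.5 and 63.1 at day 4, and 75.2 at day 6.

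The basement membrane genes were already detected at 0 h, and Lama1 fell before it rose. Lama1, the laminin chain of early embryonic basement membranes, read 24.2 and 23.7 CPM at 0 h, 5.29 and 10.0 at 8 h, 5.68 and 2.30 at day 1, 48.8 and 55.8 at day 2, 243 and 263 at day 4, and 827 at day 6 in DMSO. Its log2 fold change was −1.60 ± 0.32 at 8 h (adjusted p = 0.00074) and −2.56 ± 0.38 at day 1 (edgeR, n = 2 per group), and it was the only member called lower at either time. Lamb1, the β1 chain, read 32.0 and 34.8 CPM at 0 h, 27.8 and 24.7 at day 1, 116 and 122 at day 2, 450 and 446 at day 4, and 1174 at day 6. Its libraries overlapped those of 0 h at 8 h and stood clear above them from day 2. Col4a1 read 17.4 and 14.8 CPM at 0 h, 26.4 and 32.0 at 8 h, 14.2 and 14.4 at day 1, 138 and 123 at day 2, 1241 and 1253 at day 4, and 2755 at day 6. Its mean thus rose 9.13-fold from day 1 to day 2 and 9.56-fold over the longer interval from day 2 to day 4. At 8 h it passed the test with 0.87 ± 0.22 (adjusted p = 0.0064), and without replicate 2 of 0 h (0.75) or of 8 h (0.71) it did not.

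At day 1 Gata6, Dab2 and Pdgfra were called higher and Lama1 lower, where 16.0% of all genes were called higher and 13.4% lower. All 10 members were called higher at day 2, day 4 and day 6, against 16.2%, 19.9% and 22.4% of the 11415 genes tested. The members' median log2 fold change was 4.51 at day 2, 6.26 at day 4 and 7.13 at day 6, against 0.05, 0.06 and 0.06 over all genes tested.

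Steps between neighbouring times, a comparison added after seeing the data, placed the members' rises in order. From day 1 to day 2 in DMSO all 10 members were called higher, against 5.05% of all genes, and the Pdgfra call was lost without either day 1 library (1.53 and 1.30) or replicate 2 of day 2 (1.44). From day 2 to day 4 the call held for 9 members against 7.79%, with Sox7 at 0.83 ± 0.30 (adjusted p = 0.034, edgeR), a step that did not pass with any 1 of its 4 libraries left out. From day 4 to day 6 it held for 6 members against 4.78%. The 6 were Gata4 (1.44), Sox17 (1.16), Dab2 (1.01), Lama1 (1.71), Lamb1 (1.39) and Col4a1 (1.14). Foxa2 (0.76) and Gata6 (0.61, lost without either DMSO library of day 4) passed the test, whereas Pdgfra (0.39 ± 0.27, adjusted p = 0.35) and Sox7 (0.83 ± 0.30, adjusted p = 0.057) did not.

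Auxin, which depletes DPY30, left the members' first response to RA at a level that the test did not separate from DMSO. At 8 h no member was called between auxin and DMSO in edgeR, none reached an unadjusted p below 0.05, DESeq2 called none either, and 0.158% of all genes were called in either direction. The auxin libraries of Gata6 read 20.8 and 11.5 CPM, on either side of the DMSO values. Gata4 was at 0 in both auxin libraries at 8 h, so that no fold is given. Against DMSO cells at 0 h, also a comparison added after seeing the data, Gata6 was called higher with auxin at 8 h (2.23) and Lama1 lower (−1.23), where 3.81% of all genes were called higher and 3.40% lower. The Lama1 call was lost without replicate 1 of auxin at 8 h (−1.12, adjusted p = 0.052).

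At day 1 auxin cells had more Foxa2 and Lama1 than DMSO cells. Foxa2 read 6.30 and 7.66 CPM with auxin and 0 and 2.30 with DMSO (log2 fold change 2.54 ± 0.67, adjusted p = 0.019, edgeR), and Lama1 read 15.1 and 13.2 against 5.68 and 2.30 (1.81 ± 0.45, adjusted p = 0.012). The groups did not overlap for either gene, and these 2 of 10 members were called higher against 1.02% of all genes. Each call rested on particular libraries. Foxa2 was not called without auxin replicate 1 (2.65) or 2 (2.37) or DMSO replicate 1 (1.54), nor Lama1 without auxin replicate 1 (1.68) or 2 (1.87) or DMSO replicate 2 (1.29). Col4a1 (0.73, adjusted p = 0.087), Sox17 (1.00, adjusted p = 0.35) and Pdgfra (−1.23, adjusted p = 0.26) did not pass. Auxin libraries also lay above the DMSO libraries for Col4a1, Sox17 and Gata4, and below them for Pdgfra and Lamb1. They lay below in 24.7% of all genes, and the share above was not computed. Compared with DMSO cells at 0 h, 4 members were called higher at day 1 of auxin, against 14.4% of all genes, namely Gata6 (2.29), Sox17 (2.66), Foxa2 (2.86) and Dab2 (1.61).

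At day 2 the members divided. Dab2, Sox7 and Gata4 were lower with auxin, Sox17 and Lamb1 were lower by less than the fold required for a call, and Gata6, Foxa2 and Col4a1 were close to DMSO. Dab2 read 68.1 and 70.7 CPM with auxin against 203 and 211 with DMSO (−1.57 ± 0.13, adjusted p = 2.9e-09, edgeR, n = 2 per group), and Sox7 read 4.19 and 4.02 against 15.1 and 14.9 (−1.85 ± 0.43, adjusted p = 0.0039). Gata4 read 4.71 and 6.32 CPM against 16.1 and 12.0 (−1.34 ± 0.41, adjusted p = 0.028). For all 3 genes the auxin libraries lay below the DMSO libraries. The 3 members called lower compare with 1.88% of all genes, and the 5 that passed the test in this direction with 7.39%.

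The Dab2 and Sox7 calls held with any 1 library left out, and the Gata4 call did not. It was lost in DESeq2 (adjusted p = 0.091) and without auxin replicate 1 (−1.14), auxin replicate 2 (−1.56) or DMSO replicate 1 (−1.12). Sox17 (−0.88 ± 0.28, adjusted p = 0.039) and Lamb1 (−0.52 ± 0.15, adjusted p = 0.019) passed the test in edgeR with all libraries. Sox17 did not pass in DESeq2 (adjusted p = 0.18), without TMM scaling (−0.80, adjusted p = 0.064), or with any 1 of the 4 libraries left out (from −1.02 to −0.70), nor Lamb1 without auxin replicate 1 (−0.37) or either DMSO replicate (−0.55 and −0.48).

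Gata6 read 99.0 and 114 CPM with auxin at day 2 against 99.7 and 77.9 with DMSO (0.26 ± 0.18, adjusted p = 0.38, edgeR). Foxa2 read 37.7 and 40.8 against 36.4 and 47.1 (−0.09 ± 0.22, adjusted p = 0.83), and Col4a1 read 123 and 134 against 138 and 123 (−0.02 ± 0.13, adjusted p = 0.94). For these 3 genes the groups overlapped. In the remaining 7 members both auxin libraries were under both DMSO libraries, as in 26.2% of all genes. Lama1 (−0.51 ± 0.21, adjusted p = 0.12) and Pdgfra (−0.78 ± 0.36, adjusted p = 0.16), which belong to the 7, did not pass the test.

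By day 4 all 10 members were lower with auxin, and 8 were called. At this time 2.59% of all genes were called lower and 10.4% passed the test in this direction. The auxin libraries were all under the DMSO libraries for each member, as in 31.0% of all genes. The median log2 difference of the members was −1.42, against 0.00 over all genes tested.

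Of the transcription factors, Gata4 read 10.1 and 19.9 CPM with auxin against 51.5 and 53.5 with DMSO at day 4 (−1.80 ± 0.27), and Sox17 read 27.1 and 19.4 against 73.8 and 66.2 (−1.59 ± 0.21). Sox7 read 7.98 and 9.69 against 29.2 and 24.0 (−1.58 ± 0.33, adjusted p = 0.001, edgeR). These 3 factors stood between 28.6% and 33.2% of their DMSO means. Foxa2 was at 54.8%, with 77.1 and 78.1 CPM against 137 and 146, and passed the test without reaching the fold for a call (−0.87 ± 0.17, adjusted p = 0.00067).

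Gata6 had the smallest difference of the 5 factors, at 70.6% of DMSO, with 185 and 184 CPM against 258 and 264 at day 4. Its difference of −0.50 ± 0.16 (adjusted p = 0.027, edgeR) did not pass in DESeq2 (adjusted p = 0.12), without TMM scaling (−0.32, adjusted p = 0.18), or with any 1 of the 4 libraries left out (adjusted p from 0.10 to 0.13).

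Dab2 and the basement membrane genes were clearly separated at day 4. Dab2 read 222 and 223 CPM with auxin against 932 and 938 with DMSO (−2.07 ± 0.11, adjusted p = 2.4e-13, edgeR), at 23.8% of DMSO. Col4a1 read 368 and 329 CPM against 1241 and 1253 (−1.84 ± 0.11, adjusted p = 2.4e-12), at 27.9%. Both differences were many times the spread between replicates. Lama1 read 95.7 and 116 CPM against 243 and 263 (−1.25 ± 0.16), and Lamb1 read 172 and 219 against 450 and 446 (−1.20 ± 0.12).

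Pdgfra read 32.4 and 23.5 CPM with auxin against 51.5 and 63.1 with DMSO at day 4 (−1.04 ± 0.26, adjusted p = 0.0052, edgeR), at 48.8% of DMSO. It did not pass in DESeq2 (adjusted p = 0.077), nor without auxin replicate 2 (−0.82) or DMSO replicate 2 (−0.88).

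**Figure D2:**
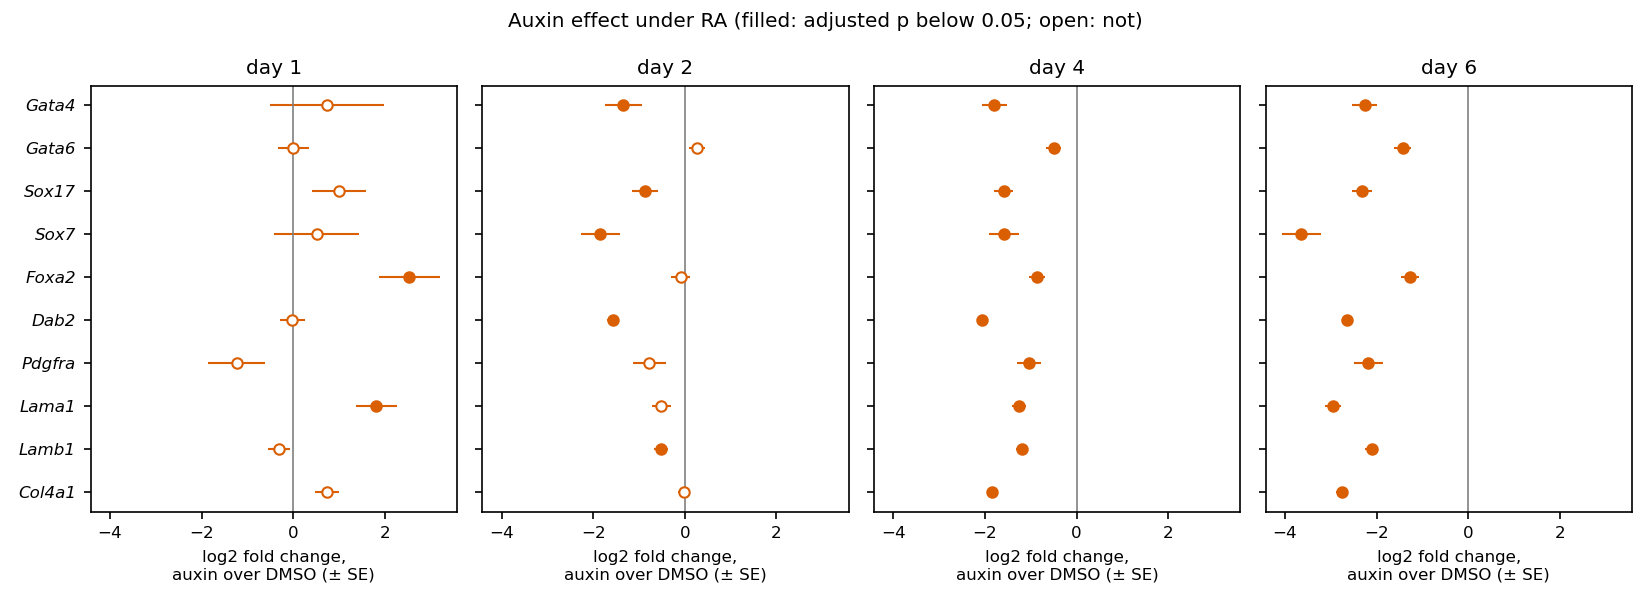
Log2 fold change of auxin over DMSO with its standard error for each member at days 1, 2, 4 and 6 of RA (edgeR, 2 libraries per group, with 1 DMSO library at day 6). Filled points mark an adjusted p below 0.05 and open points the others. Values for Gata6, Foxa2 and Col4a1 are near 0 at day 2 and all 10 are below 0 at days 4 and 6.

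The gap was wider at day 6, where all 10 members were called lower with auxin, against 5.30% of all genes. All auxin libraries were under the DMSO library for each of the 10, as in 34.7% of all genes. Sox7 was at 7.85% of its DMSO level, with 3.98 and 3.47 CPM against 47.5, Lama1 at 13.0% (83.6 and 132 against 827), Col4a1 at 14.8% (465 and 347 against 2755) and Dab2 at 16.0% (311 and 291 against 1882). Sox17, Gata4, Pdgfra and Lamb1 were between 19.8% and 23.3%. Gata6 (180 and 111 against 397) and Foxa2 (85.9 and 115 against 240) kept the largest shares, at 36.7% and 41.7%. The members' median log2 difference was −2.29, with 1 DMSO sample behind it.

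Scaling shifted the direction of calls over all genes more than it shifted the members. With TMM scaling 532 genes were called higher and 296 lower with auxin at day 4, and 545 higher and 605 lower at day 6. Without TMM, 770 were called higher and 208 lower at day 4, and 756 higher and 450 lower at day 6, and the median over all genes rose to 0.18 and 0.17. The number of members called lower was between 7 and 8 at day 4 and 10 at day 6 under each alternative run, this scaling included.

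The members were still activated in auxin cells. Against DMSO cells at 0 h, 9 members were called higher with auxin at day 2 (all but Lama1, at 0.61), 10 at day 4 and 10 at day 6, against 18.2%, 22.8% and 23.2% of all genes. The Sox7 call was lost without replicate 1 of 0 h at day 2 (2.19) and day 6 (2.05), and without auxin replicate 1 at day 6 (2.26). From day 1 to day 2 of auxin 9 members were called higher against 6.71% of all genes, with Sox7 at 1.28 ± 0.71 (adjusted p = 0.21, edgeR). Of these 9, the calls of Gata4, Sox17 and Pdgfra were lost with some or all of the 4 libraries left out in turn, at log2 steps from 1.17 to 2.95. From day 2 to day 4 the call held for 6 members against 5.99%, with Foxa2 (0.98), Sox17 (0.97) and Gata6 (0.79) passing the test and Sox7 not (1.09 ± 0.47, adjusted p = 0.085). The count was 9 without TMM scaling, where Sox7 was called (1.26, adjusted p = 0.045), 6 under the other alternatives with all libraries, and from 5 to 8 with 1 library left out. Sox17 did not pass in DESeq2 (adjusted p = 0.073), nor without replicate 1 of day 2 (0.87) or day 4 (0.72), and the Gata4 call was lost without replicate 1 of day 2 (1.25) or replicate 2 of day 4 (0.87).

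From day 4 to day 6 of auxin no member was called by edgeR or by DESeq2, where 3.94% of all genes were called in either direction, although 5 members had an unadjusted p below 0.05. Of these, Gata4 (0.97 ± 0.30, adjusted p = 0.038), Dab2 (0.44 ± 0.11, adjusted p = 0.013) and Lamb1 (0.48 ± 0.13, adjusted p = 0.016) passed the test as higher, against 5.83% of all genes. Sox7 (−1.22 ± 0.49, adjusted p = 0.11), Pdgfra (−0.76 ± 0.32, adjusted p = 0.13) and Gata6 (−0.33) had values below 0 that did not pass. The Gata4 and Lamb1 rises did not pass without replicate 1 of day 4 or replicate 2 of day 6, nor that of Dab2 without either library of day 4. Without replicate 1 of day 6, 2 members were called, Gata4 higher and Pdgfra lower (−1.14, adjusted p = 0.031). In the same fit Gata6 passed as lower (−0.72, adjusted p = 0.00085) and Foxa2 as higher (0.57). Without replicate 2 of day 6 Col4a1 passed as higher (0.42), and without replicate 2 of day 4 Gata4 was the 1 member called, as higher. Set beside the DMSO course, the auxin means of day 6 lay between those of DMSO day 2 and day 4 for 8 members, and under that of DMSO day 2 for Sox7 and Pdgfra.

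Whether the auxin effect itself changed with time was tested as an interaction. Between day 1 and day 4 the effect became more negative for 5 members, against 1.80% of all genes, by −3.41 ± 0.68 for Foxa2 (adjusted p = 0.0023), −3.07 ± 0.47 for Lama1, −2.59 ± 0.63 for Sox17 (adjusted p = 0.0099), −2.57 ± 0.28 for Col4a1 and −2.05 ± 0.31 for Dab2 (edgeR). The Sox17 change was lost without auxin day 1 replicate 1 (−2.42, adjusted p = 0.10). Between day 1 and day 2 the change was called for Lama1 (−2.33 ± 0.50, adjusted p = 0.012) and Dab2 (−1.56 ± 0.31, adjusted p = 0.0078), against 0.552% of all genes. The Lama1 call was lost without either auxin day 1 library (−2.21 and −2.40) or DMSO day 1 replicate 2 (−1.82), and the Dab2 call without auxin day 1 replicate 2 (−1.15) or DMSO day 1 replicate 1 (−1.45). Foxa2 was called as well with no filter (−2.63, adjusted p = 0.015), with the replicate block (−2.63, adjusted p = 0.042), with both day 6 DMSO libraries entered (adjusted p = 0.046) and without DMSO day 1 replicate 2 (adjusted p = 0.02). Between day 2 and day 4, a comparison added after seeing the data, Col4a1 alone was called (−1.82 ± 0.17, adjusted p = 1.6e-07), against 0.394% of all genes.

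Genes that act with the members moved partly with them. Of 18 basement membrane partners and collagen-processing genes, all tested, 11 were called higher and none lower in DMSO at day 4, and 3 were called lower with auxin at day 4 (2 passed as higher and 10 as lower) and 10 at day 6. Their median log2 difference with auxin was −0.52 at day 4 against 0.00 over all genes. Col4a2, the partner chain of Col4a1, went from 6.33 CPM at 0 h to 400 in DMSO and 144 in auxin at day 4. Serpinh1, the collagen chaperone, went from 24.7 to 1157 and 313 CPM, and Sparc, a collagen-binding matrix protein, read 3978 CPM in DMSO and 911 in auxin. All 3 were lower with auxin (Serpinh1 by −1.89 and Sparc by −2.13 on the log2 scale).

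Some markers of both descendant tissues were also called lower with auxin. Of 20 visceral endoderm genes 15 were tested, 11 were called higher in DMSO at day 4, and 6 were called lower with auxin at day 4 and none higher. At day 6, 10 were lower and 2 higher. Cubn, an endocytic receptor that works with DAB2, read 202 CPM in DMSO and 21.4 in auxin at day 4 (−3.24). Apoe, an apolipoprotein that mES cells also express, read 453 and 56.6 CPM (−3.00). Ttr, which carries thyroid hormone and retinol-binding protein, was at 0 in both 0 h libraries and read 56.8 CPM in DMSO and 10.1 in auxin at day 4. Of 7 parietal endoderm genes 6 were tested and all 6 were called higher in DMSO at day 4, and 3 were called lower with auxin at day 4 and 4 at day 6. Pth1r, the receptor of parathyroid hormone-related protein, read 79.2 and 14.8 CPM (−2.41), whereas Plat, tissue plasminogen activator, read 28.3 and 42.3.

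The FGF genes, which carry the signal that favours primitive endoderm over epiblast, differed little. Of 14 genes 13 were tested, and with auxin at day 4 none was called in edgeR (1 passed as higher and 3 as lower), while in DMSO at day 4 there were 4 called higher and 3 lower. Fgfr2, a receptor, was at 0 in both 0 h libraries and read 76.9 CPM in DMSO and 46.2 in auxin at day 4. Spry4, a feedback inhibitor, went from 69.5 CPM at 0 h to 8.86 in DMSO and 5.99 in auxin. Etv5 and Dusp6, targets of the pathway, had log2 differences with auxin of −0.59 and −0.41.

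Direct RA targets were on with and without auxin. The 9 genes summed to between 209 and 248 CPM with auxin against between 361 and 375 with DMSO at 8 h. The sums were between 950 and 1011 against between 1603 and 1726 at day 1. At day 4 they were between 1778 and 1812 against between 1254 and 1304. All 9 were called higher in DMSO at day 4, and with auxin 2 were called higher than DMSO and none lower. At day 2 none was called with auxin against DMSO, and 1 passed as higher and 5 as lower. At day 6, 3 were called higher and 2 lower, where 4.77% of all genes were called higher and 5.30% lower. Cyp26b1, an RA-degrading enzyme, was at 0 in both 0 h libraries and read 222 CPM in DMSO and 450 in auxin at day 4 (1.02), and Hoxb1 read 115 and 329 CPM (1.51). Cyp26a1 read 116 and 99.0 CPM.

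**Figure D3:**
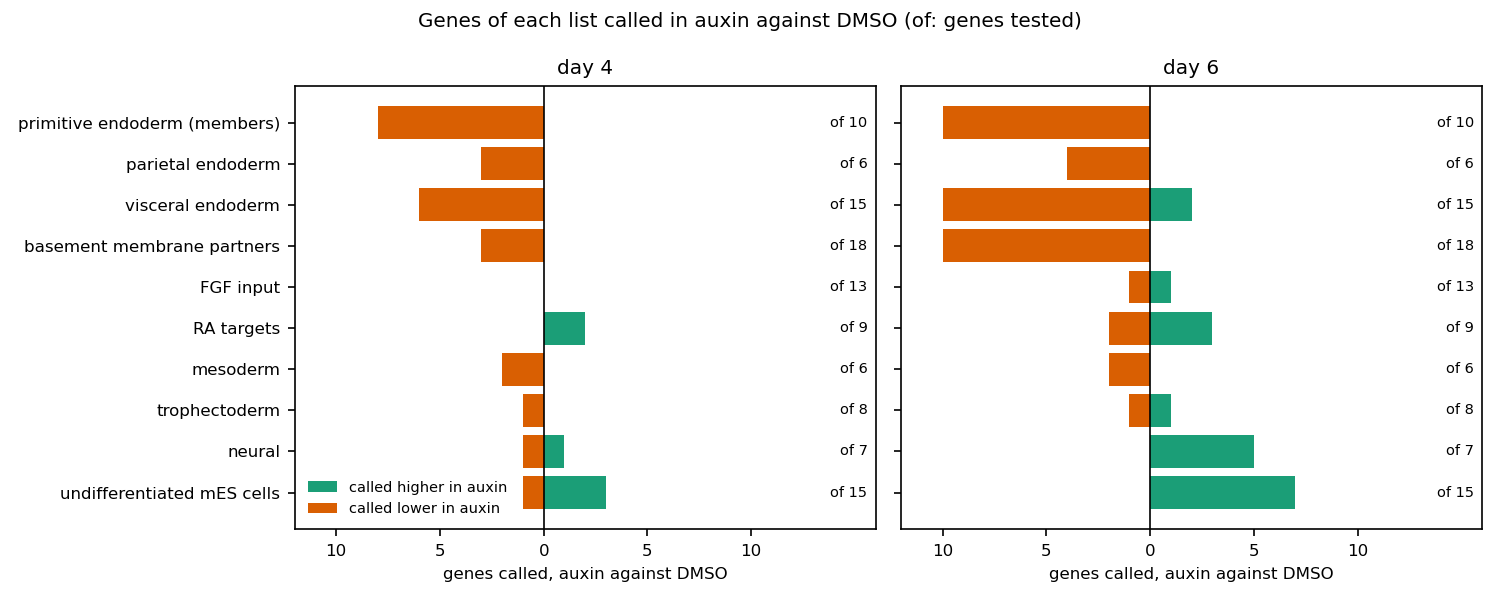
Bars count the genes of each list called higher or lower with auxin against DMSO at days 4 and 6 of RA. The number tested is printed beside each list. Of the 10 primitive endoderm members, 8 were called lower at day 4 and 10 at day 6, and none higher.

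Markers of other cell types also moved with treatment, and their part in the members' differences was not tested. The 15 genes of undifferentiated mES cells summed to between 10300 and 10691 CPM at 0 h, between 4841 and 4916 in DMSO and between 3095 and 3163 in auxin at day 4, and 2797 in DMSO against between 2543 and 2691 in auxin at day 6. With auxin 3 of the 15 were called higher and 1 lower at day 4, and 7 were called higher and none lower at day 6. By the adjusted p alone, 3 passed as higher and 7 as lower at day 4, with a median log2 difference of −0.43. At day 6, 7 passed as higher and 3 as lower. Over all genes 4.66% were called higher at day 4 and 4.77% at day 6, and 2.59% and 5.30% lower. Klf2, a pluripotency factor, read 766 CPM at 0 h, 95.8 in DMSO and 250 in auxin at day 4, and Dppa3 was at 0 in both DMSO libraries of day 4 and averaged 7.57 CPM with auxin. Tdgf1, a Nodal co-receptor, read 696, 11.6 and 23.9 CPM.

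Of 12 neural genes 7 were tested, 1 was called higher and 1 lower with auxin at day 4, and 5 higher and none lower at day 6, beside the same shares over all genes. Their summed level was 52.5 CPM in DMSO and between 104 and 138 in auxin at day 6. From 0 h to day 4 in DMSO Elavl3 went from 82.4 to 8.24 CPM and Map2 from 5.33 to 25.5. Elavl4 read 4.46 CPM in DMSO and 12.2 in auxin at day 4, and Sox1, a neural progenitor factor, read 15.8 and 6.55. Of 10 mesoderm genes 6 were tested, all called higher in DMSO at day 4, and 2 were called lower with auxin, Foxf1 (11.5 CPM in DMSO and 2.57 in auxin) and Eomes (28.5 and 11.4), while Twist1 read 21.8 and 17.5. Of 6 definitive endoderm genes 3 were tested and all 3 were called higher in DMSO, 1 being lower with auxin (Eomes again), while Foxa1 read 31.6 and 62.3 CPM. Of 9 trophectoderm genes 8 were tested, 5 were called higher in DMSO and 1 lower with auxin (Eomes again). Gata3 read 118 and 95.3 CPM and Krt18 63.3 and 70.1. Of 6 cardiac genes 5 were matched to an interval and only Myl7 had enough reads to be tested, at 0.672 CPM in DMSO and 1.29 in auxin.

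The genes most like the members were found by correlating mean log2 CPM over the 11 Quant-seq groups, which share libraries with the members. Among 4027 candidate genes, the mean profile of the members was closest to Tmprss2 (Pearson's r = 0.993), Tfpi (0.992), Egflam (0.991), Bmp2 (0.990) and Dkk1 (0.990). Tmprss2, a membrane serine protease, was at 0 at 0 h and read 69.3 CPM in DMSO and 20.2 in auxin at day 4. Tfpi, an inhibitor of tissue factor, went from 2.76 CPM to 111 and 44.3.

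For single members, the nearest profiles were Tmprss2 for Gata4 (0.989) and Dab2 (0.994), Casp6 for Gata6 (0.983), Gdpd5 for Sox17 (0.990), Srgn for Sox7 (0.987), Flrt3 for Foxa2 (0.986), Slc44a3 for Pdgfra (0.993), Gas6 for Lama1 (0.987), Hs3st1 for Lamb1 (0.993) and Col4a2 for Col4a1 (0.991). Casp6, nearest to Gata6, read 54.6 CPM in DMSO and 55.0 in auxin at day 4. Srgn, nearest to Sox7, read 312 and 28.4 CPM.

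In undifferentiated cells of the SLAM-seq lines most members were near the detection limit, with the basement membrane genes as the exception. The dKO libraries were sequenced from shorter reads, with 11.2 T positions per read against 18.7 in both other lines, so that line and read length cannot be told apart. As a check of the labels, Kdm5a read between 26.3 and 38.6 CPM in dKO libraries and between 63.7 and 110 in DPY30–mAID libraries, and Kdm5b between 111 and 153 and between 409 and 987, although 3′ end counts outside a deleted part check little.

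**Figure D4:**
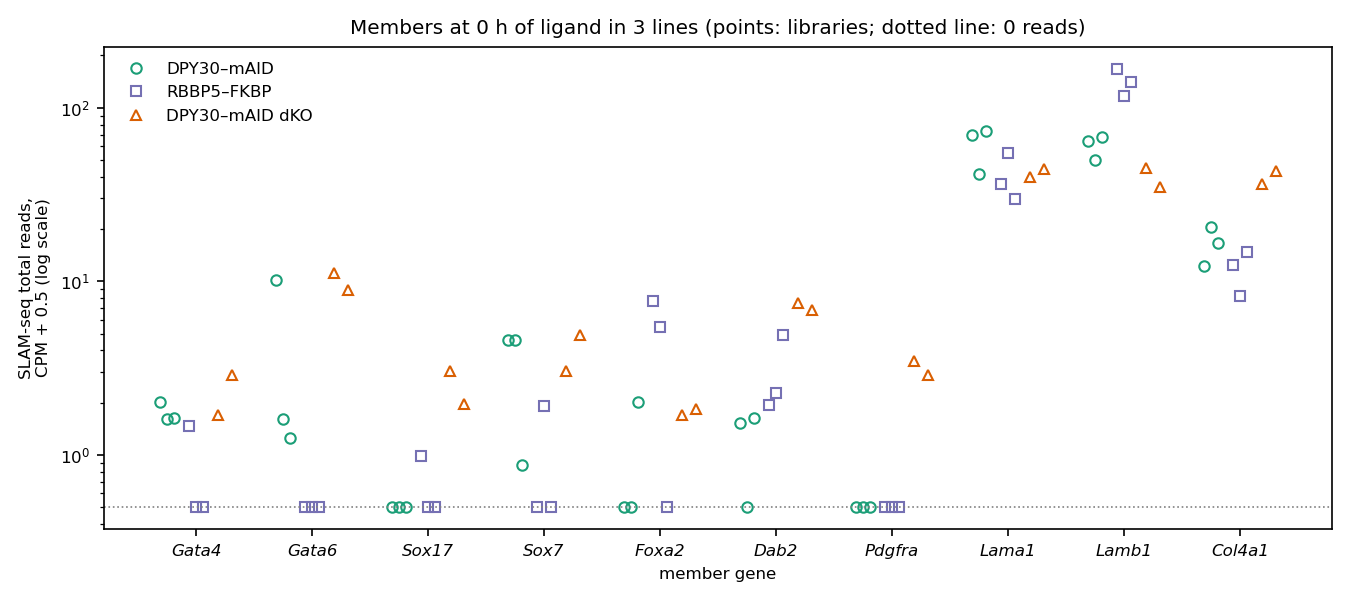
CPM of each member in single 0 h SLAM-seq libraries of the DPY30–mAID (3 libraries), RBBP5–FKBP (3) and dKO (2) lines. Lamb1 lies highest in RBBP5–FKBP libraries, and Dab2 and Col4a1 lie higher in dKO than in DPY30–mAID libraries.

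Lama1 at 0 h read 69.2, 40.9 and 72.8 CPM in DPY30–mAID cells, 35.9, 54.2 and 29.2 in RBBP5–FKBP cells and 39.6 and 44.0 in dKO cells, with overlap between the first line and the other two. Lamb1 read 64.1, 49.4 and 67.6 CPM in DPY30–mAID cells, 167, 117 and 140 in RBBP5–FKBP cells and 44.5 and 34.3 in dKO cells. Lamb1 was thus highest in RBBP5–FKBP cells (1.22 ± 0.17 against DPY30–mAID, adjusted p = 2.9e-07, edgeR) and lowest in dKO cells, where the difference of −0.61 ± 0.19 (adjusted p = 0.0078) passed the test but did not without dKO replicate 2 (−0.44). Over all genes 18.4% passed as lower in dKO cells.

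In dKO cells 4 of 10 members were called higher than in DPY30–mAID cells, against 11.4% of all genes. Col4a1 read 35.7 and 42.9 CPM against 11.7, 20.1 and 16.2 (1.28 ± 0.40, adjusted p = 0.0097, edgeR), a call lost without dKO replicate 2 (1.14, adjusted p = 0.083). Dab2 read 7.0 and 6.38 CPM against 1.02, 0 and 1.13, a ratio of 9.92 from 95 and 5 reads (exact 95% interval 4.10 to 31.2). Sox17 and Pdgfra were at 0 in all 3 DPY30–mAID libraries. These 2 genes averaged 10 reads or above only in the deeper dKO groups. A lower value in dKO cells was thus not open to them, and their calls do not add to the count as support. Against a floor of 3 counts over that group, Sox17 (2.53 and 1.46 CPM in dKO) was at least 5.07-fold higher and Pdgfra (2.98 and 2.39) at least 6.81-fold higher. The Sox17 call (adjusted p = 0.017) was lost in DESeq2 (adjusted p = 0.052) and without DPY30–mAID replicate 2 or dKO replicate 1.

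Gata6 at 0 h depended on 1 library. It read 9.66, 1.12 and 0.755 CPM in DPY30–mAID cells, 0 in all 3 RBBP5–FKBP libraries, and 10.7 and 8.37 in dKO cells. The call of lower Gata6 in RBBP5–FKBP cells (adjusted p = 0.0043, edgeR), at least 9.96-fold by the floor of 3 counts over the group, was lost without DPY30–mAID replicate 1 (at least 2.42-fold, adjusted p = 0.10). Without that library Gata6 was instead called higher in dKO cells (3.30, adjusted p = 0.0076), the only line in which it averaged 10 reads or above in any group. In RBBP5–FKBP cells 1 member was called higher, Lamb1, and 1 lower, Gata6, where 3.53% of all genes were called higher and 5.55% lower. Foxa2 read 7.19, 4.93 and 0 CPM in RBBP5–FKBP libraries against 0, 0 and 1.51 in DPY30–mAID libraries, with overlap, and was called higher without replicate 3 of either line. Sox7 was called lower without RBBP5–FKBP replicate 2 (adjusted p = 0.042), with 0 CPM in the other 2 libraries against 4.07, 4.09 and 0.377 in DPY30–mAID cells.

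After loss of a COMPASS subunit without RA, few members had enough reads to be tested. In DPY30–mAID cells there were 4, all of which passed the test at 24 h, where 15.9% of all genes passed as higher and 17.0% as lower. Neither at 2 h nor at 8 h was any called by edgeR or DESeq2, and none had an unadjusted p below 0.05. Over the 9848 genes tested, 0 were called at 2 h, and 2.21% were called higher and 1.96% lower at 8 h. At 24 h Dab2 was called higher (2.78 ± 1.09, adjusted p = 0.043, edgeR) and Col4a1 lower (−1.93 ± 0.55, adjusted p = 0.0045), against 6.16% and 7.05% of all genes.

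Dab2 rested on few reads, with 0.404, 9.10 and 5.94 CPM at 24 h against 1.02, 0 and 1.13 at 0 h, a ratio of 7.15 from 33 and 5 reads (exact 95% interval 2.77 to 23.5). The groups overlapped, and the call was lost without any 1 of the 0 h libraries. In this line Dab2 reached the mean read count required for testing only at 24 h, so the filter itself favoured a rise for this gene. Its call thus adds no support when set beside the share of all genes called higher. Col4a1 read 1.21, 5.56 and 5.94 CPM at 24 h, under each of its 0 h libraries. Lama1 (−0.81 ± 0.25, adjusted p = 0.0094) and Lamb1 (−0.95 ± 0.22, adjusted p = 0.0006) passed the test as lower, as did 17.0% of all genes. Lama1 did not pass without replicate 3 of 0 h or replicate 2 of 24 h, and leaving out 1 library moved the number of members called at 24 h from 2 to between 1 and 4 (4 without replicate 1 of 24 h, and 1 without replicate 1 or 3 of 0 h or replicate 2 or 3 of 24 h).

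**Figure D5:**
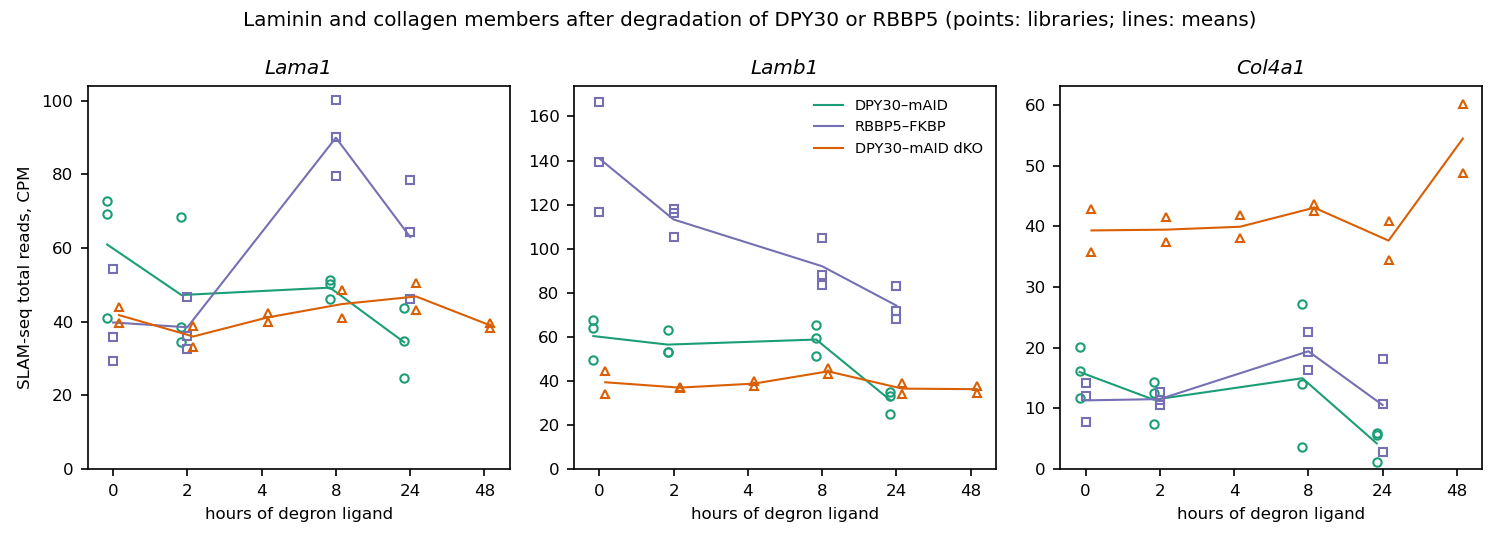
CPM of single SLAM-seq libraries for Lama1, Lamb1 and Col4a1 over the hours after auxin or dTAG-13 in each line. Dab2, also tested in DPY30–mAID cells, and the other members tested in dKO cells are not shown. Col4a1 in DPY30–mAID cells lies lower at 24 h than at 0 h, and Lama1 in RBBP5–FKBP cells lies higher at 8 h than at 0 h.

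In RBBP5–FKBP cells 3 members were tested. Lama1 was called higher at 8 h of dTAG-13, with 79.6, 100 and 90.1 CPM against 35.9, 54.2 and 29.2 at 0 h (1.18 ± 0.25, adjusted p = 0.0039, edgeR) and no overlap, where 2.26% of all genes were called higher. At 24 h its difference was 0.67 (adjusted p = 0.1). Lamb1 passed the test as lower at 8 h (−0.61 ± 0.18, adjusted p = 0.031), which was lost without replicate 1 or 3 of either time, and at 24 h (−0.91 ± 0.18, adjusted p = 0.0018). Over all genes 4.96% passed as lower at 8 h and 4.34% at 24 h. No member was called at 24 h by edgeR or DESeq2, where 1.65% of all genes were called higher and 1.83% lower. At that time 2 members had an unadjusted p below 0.05, and 1 was called without replicate 2 of 0 h. At 2 h no member was called or had such a p, and 0 of the 9676 genes tested were called.

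In dKO cells all 10 members were tested, at greater depth, and none was called at any of the 5 times by edgeR or DESeq2. Over the 11394 genes tested, 0 were called at 2 h, 0 at 4 h and 1 at 8 h, so these times do not set the members apart. At 24 h 0.878% were called higher and 0.579% lower. At 48 h, 2.42% of all genes were called in either direction, and 2 members had an unadjusted p below 0.05. Col4a1 passed the test as higher at 48 h (0.47 ± 0.13, adjusted p = 0.025), as did 6.59% of all genes. It did not pass without replicate 1 of 0 h or replicate 2 of 48 h. At 4 h and 8 h 1 member had an unadjusted p below 0.05, and at 2 h and 24 h none had.

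Reads with T>C conversions, which mark RNA made during labelling, were too few for most members, with 2 tested in DPY30–mAID cells, 2 in RBBP5–FKBP cells and 4 in dKO cells. They were scaled to the total reads of each library, so that a fall over all genes remains in the values. In DPY30–mAID cells no member was called by edgeR or DESeq2, with 1 unadjusted p below 0.05, at 24 h. At 8 h Lama1 (−1.36 ± 0.79) and Lamb1 (−1.44 ± 0.73) had values below the median over all genes of −0.72, where 14.6% were called lower. At 24 h they were −1.73 ± 0.81 and −0.95 ± 0.71, against a median of −0.14 and 2.69% called lower. In RBBP5–FKBP cells Lamb1, with 30, 51 and 44 T>C reads at 0 h, was called lower at 8 h (−1.99 ± 0.60, adjusted p = 0.03, edgeR) and 24 h (−2.38 ± 0.61, adjusted p = 0.0023), where the median over all genes was −0.49 and −0.91 and 5.44% and 22.8% were called lower. The 8 h call was lost without replicate 2 or 3 of either time.

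In dKO cells the falls of T>C reads came late and alongside a fall over all genes. At 24 h Gata6 was called lower (−1.92 ± 0.70, adjusted p = 0.022, edgeR), from 15 and 9 reads to 3 and 3, where the median over all genes was −0.80 and 27.1% were called lower. At 48 h Lama1 (−1.46 ± 0.62, adjusted p = 0.032) and Col4a1 (−2.28 ± 0.78, adjusted p = 0.0078, from 11 and 10 reads to 2 and 2) were called lower, where the median was −1.29 and 64.5% were called lower. The members' shares are thus to be read against this general fall. Col4a1 averaged 10 T>C reads or above only at 0 h, so the filter itself favoured a fall for this gene. The Gata6 call was lost without replicate 1 of 0 h or either replicate of 24 h, and that of Lama1 without replicate 2 of 0 h or replicate 1 of 48 h. When libraries were scaled by their T>C reads in place of all reads, none of the Lamb1, Gata6, Lama1 and Col4a1 calls on T>C reads held in edgeR.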

How the data were processed

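The authors deposited SlamDunk (v0.3.4) tables of raw read counts per annotated 3′ UTR interval (GENCODE vM14, mm10 per the file headers), with CPM and T>C read counts beside them, for 22 Quant-seq and 36 SLAM-seq libraries. The deposited CPM were not used. For Quant-seq the study's methods describe mapping with HISAT2 2.2.1 and counting with featureCounts, whereas the headers of the Quant-seq tables name SlamDunk. Counts were summed per gene and CPM recomputed from them. Gene positions are from GENCODE vM21 on GRCm38.

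edgeR 4.0.16 (R 4.3.3) fitted quasi-likelihood models with TMM scaling to all 21 Quant-seq samples and to each SLAM-seq line on its own. The lines were compared at 0 h in a fit to all SLAM-seq libraries, those with ligand included. Genes entered a fit where 1 or more groups averaged 10 reads or above. T>C counts used the library sizes and scaling factors of all reads. DESeq2 1.42.0 was an alternative. Models were tested on simulated data. The members and gene lists were chosen with earlier results of these data known. All 10 members are named, and of each list the 2 genes with the largest change among those called at day 4 in DMSO or between auxin and DMSO, or the 2 with the highest CPM where none was called. The labels of the Quant-seq replicates do not say that they were separate cultures, so p-values measure the spread between these samples, which may be technical. Reads carry no molecular identifiers, so intervals and floors cover counting error only.

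Replicate numbers were not taken to pair samples, since not every pair of groups had same-numbered deviations correlated above 0.1. This held for 2 of 45 pairs in Quant-seq (mean 0.0011), 4 of 15 in dKO SLAM-seq (mean 0.048, highest 0.339) and 0 of 6 in either other line.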

Additional observations from a re-analysis of the deposited data

Results flagged for a closer look

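For 5 of the members the effect of auxin differed between times by a test of the difference itself (an interaction term in edgeR). From day 1 to day 4 the log2 difference between auxin and DMSO moved by −3.405 for Foxa2, −3.065 for Lama1, −2.59 for Sox17, −2.575 for Col4a1 and −2.05 for Dab2. From day 1 to day 2 it moved by −2.325 for Lama1 and −1.556 for Dab2. In Foxa2, Lama1, Sox17 and Col4a1 the auxin libraries lay above the DMSO libraries at day 1 and below them at day 4. For Sox17 and Col4a1 the day 1 difference did not pass the test. The libraries that decide the Sox17 change and both changes from day 1 to day 2 are named with those results above.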

How the results depend on the processing

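The 10 members were called higher in DMSO at days 2, 4 and 6, and lower with auxin at day 6, under every alternative run (DESeq2, no TMM, no filter, the largest interval, singly mapped reads, the replicate block, both day 6 libraries entered, each library left out). The single DMSO sample of day 6 could not be left out, so the day 6 results were not checked in that way. With auxin the count was from 2 to 3 at day 2 and from 7 to 8 at day 4. Over all genes DESeq2 called 225 higher and 197 lower at day 4, and 198 and 358 at day 6, against 532 and 296, and 545 and 605, in edgeR. In undifferentiated cells, the DPY30–mAID count of 2 at 24 h was 1 without a filter and 1 with the replicate block (Dab2 2.71, adjusted p = 0.068, edgeR), and the block changed no other count by over 1.5 times. On T>C reads, the RBBP5–FKBP count of 1 at 8 h was 0 without a filter, the dKO counts of 1 at 24 h and 2 at 48 h were 0 and 1 in DESeq2, and all were 0 with library sizes from T>C reads, as was that of RBBP5–FKBP at 24 h. With 1 library left out, counts ranged from 0 to 1 for auxin at day 1, 1 to 2 for auxin at 8 h against 0 h, 0 to 2 for the effect of day 2 less day 1, 4 to 6 for day 4 less day 1, 0 to 2 for auxin day 6 against day 4, 1 to 3 for RBBP5–FKBP at baseline, 1 to 4 for DPY30–mAID at 24 h, 0 to 1 for RBBP5–FKBP at 24 h and, on T>C reads, 0 to 1 for RBBP5–FKBP at 8 h, 0 to 1 for dKO at 24 h and 1 to 2 at 48 h. Beyond the settings' own removal of libraries, genes or scaling the cause was not tested. Of single gene values, 3824 kept their side of the threshold, 133 lost it and 33 gained it. The sign differed from the reported one in 118 of 3990, none of which passed the test in either fit. Depth limits Gata4, Sox17, Sox7, Foxa2 and Pdgfra, which had 2 to 5 reads in all at 0 h, and T>C reads of most members.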
